A study of Mus musculus with 18 samples.

Results

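The uterus of mice labelled ERBOE, described as overexpressing oestrogen receptor beta, was compared with the uterus of mice labelled PRCre (PRCre/+), in which Cre recombinase is expressed from the progesterone receptor locus and which served as controls. The 6 arrays titled as uterus of either genotype, of 18 arrays in the series, entered the comparison, and each was a member by its label alone. Both groups were females of 12 weeks, without surgery, and uteri were taken at estrus. Uteri of 9 mice per group were combined as RNA into 3 pools of 3 animals, so that 1 array carried 1 pool and an n of 3 counts pools. The other 12 arrays, of eutopic endometrium and ectopic lesions of the same genotypes, served for the estimate of variance and for 1 comparison between tissues. Those tissues came from surgery at 8 weeks of age and were collected at estrus 4 weeks later. Lesions were ERBOE or PRCre uterine fragments in wild-type hosts, and eutopic endometrium was from ERBOE or PRCre mice that carried a wild-type fragment. The alleles that make up the ERBOE genotype, the promoter of the transgene and the strain background of these mice are not given in the sources used here.

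Oestrogen receptor beta, encoded by Esr2, is a nuclear receptor that binds the same DNA elements as oestrogen receptor alpha, encoded by Esr1. In the mouse uterus the alpha receptor carries most of the growth response to oestrogen, in which the luminal epithelium divides, lays down lipid and secretes. Progesterone, acting through the receptor encoded by Pgr, opposes that growth, and part of its action runs from the epithelium to the stroma through Indian hedgehog. Estrus follows the preovulatory peak of oestrogen, so epithelial growth and secretory genes are normally active in both groups at this stage.

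Each value below is a level: the log2 of the processed signal of a gene's brightest probe minus the 75th percentile of the same array. A difference is ERBOE minus PRCre on that log2 scale, with the standard error of limma, and levels of different genes cannot be set against each other. In the uterus the replicate number was also the slide, so each slide gave 1 within-slide difference. PRCre replicate 1 stood apart in overall signal. Its 75th percentile signal was 239.6, against 455.1 to 667.0 on the other 5 uterus arrays, and 55.3% of its probes were well above background, against 56.7% to 67.2%. Its array weight in limma was 0.174, against 0.654 to 6.87 on the other 5. No spot was saturated on any of the 6 arrays (0 spots each). Arrays correlated at 0.931 to 0.973 within groups and at 0.923 to 0.963 between groups.

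The tissue label was checked first. All 14 defining uterine markers examined, of epithelium (Krt8, Krt18, Cdh1, Epcam), stroma (Hoxa10, Hoxa11, Pdgfra, Hand2) and smooth muscle (Myh11, Acta2, Des, Cnn1) together with Esr1 and Pgr, were well above background on all 6 arrays. The genotype label was not borne out by the array. Esr2 had levels of 2.40, 2.55 and 2.40 in ERBOE, against 2.82, 2.73 and 2.51 in PRCre, and read lower in ERBOE on each slide, with a difference of -0.24 ± 0.17 (limma adjusted p = 0.544) and groups that overlapped. The other Esr2 probe was not well above background on any of the 6 arrays. The sources used here do not say whether the transgene holds the probe sequences, so the probes check neither its presence nor its absence, and ERBOE stands below for arrays labelled ERBOE. Esr1, by its brightest probe, had levels of 3.77, 3.73 and 3.76 in ERBOE, against 3.62, 3.72 and 3.73 in PRCre. It read higher on each slide, with 3.727 as the lowest ERBOE value and 3.725 as the highest PRCre value. Its dimmer probes did not all read alike. One of them had -1.10, -1.18 and -1.11 in ERBOE, against -1.91, -1.36 and -1.45 in PRCre, without overlap. Another, the dimmest, had -3.18, -2.92 and -2.86 in ERBOE, against -3.58, -2.36 and -2.99 in PRCre, with overlap, and was well above background on 2 PRCre arrays. The remaining Esr1 probes read higher in ERBOE on each slide. They had 1.491, 1.644 and 1.459 against 1.191, 1.376 and 1.458, then 0.31, -0.16 and 0.07 against -0.39, -0.39 and -0.08, and -0.60, -0.26 and -0.38 against -0.62, -0.35 and -0.46. Pgr had levels of 1.41, 1.90 and 2.01 in ERBOE, against 0.67, 2.80 and 2.65 in PRCre, where the low value was that of replicate 1. The Pgr difference was 0.74 on slide 1, but -0.90 on slide 2 and -0.64 on slide 3.

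Across 33185 features, 0 passed the threshold of 0.05 on the adjusted p of limma (smallest adjusted p = 0.167), which is 0% called. At an unadjusted p under 0.05, 1640 features were higher in ERBOE (4.94% of those tested) and 2871 were lower (8.65%). The median difference of all features was -0.111. Scaling each array to its median in place of its 75th percentile moved that median to 0.054 and turned the split to 2986 higher and 1551 lower, so gene lists are read against this shift. The background for the other counts below is that 14.4% of features were higher and 24.6% lower on all 3 slides, and that the 3 ERBOE arrays lay wholly above the 3 PRCre arrays for 6.22% and wholly below for 8.22%. Since no gene passed, a gene "read higher" or "read lower" describes the measured levels and is no call. Over all features, 13500 read higher and 19685 lower. The lists hold genes with a symbol, whose background was more even. Of 17908 such genes 8395 read higher and 9513 lower, with a median difference of -0.038. At an unadjusted p under 0.05, 1211 of them were higher and 1332 lower. On all 3 slides 3330 were higher and 3870 lower, and 1509 lay wholly above and 1360 wholly below. Lists are described by counts and medians, with no test over their members. Of the lists described below, 23 were also fitted without 1 of the 6 arrays or without both arrays of 1 slide, 9 fits in all. Leaving out arrays lowers their number and with it the power to reach a given p. The lists of TGF-beta, Wnt, EGF and eosinophil genes and of markers of other tissues were not fitted in this way.

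**Figure D1:**
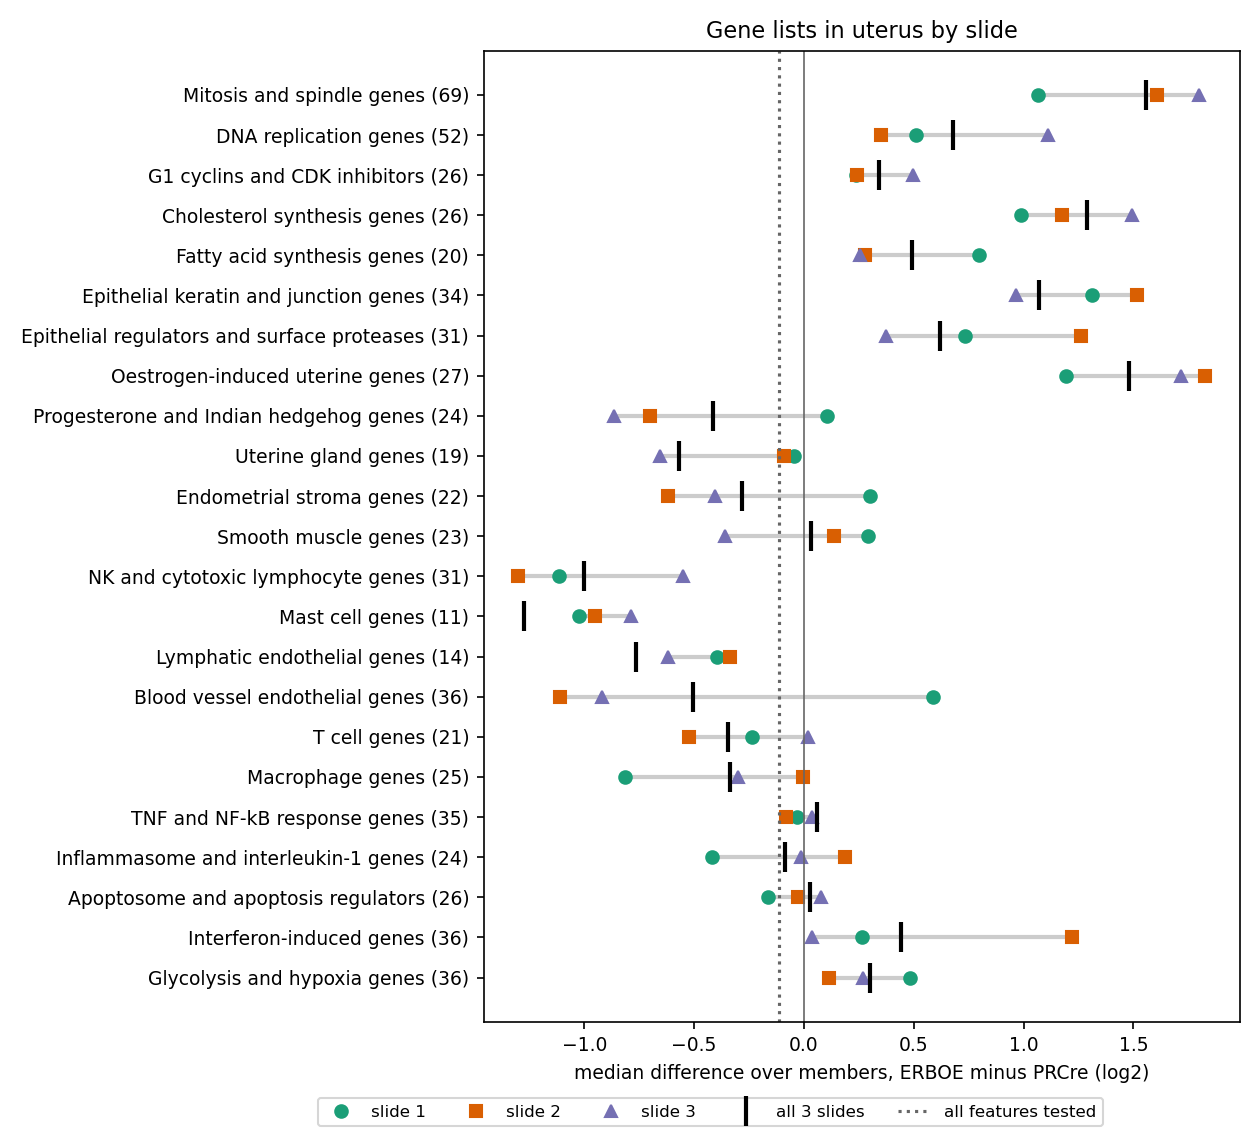
Median difference over the members of each of 23 gene lists, ERBOE minus PRCre (log2, horizontal axis), with the number of members measured in brackets. Coloured symbols are the medians within each slide, the black bar is the median of the members' mean differences, which can lie outside the slide medians, and the dotted line is the median of all features tested (-0.111). Mitosis, cholesterol, epithelial and oestrogen-induced genes lay above 0 on all 3 slides, NK, mast cell and lymphatic genes below 0 on all 3, and blood vessel genes had 0.590 on slide 1 but -1.108 and -0.918 on slides 2 and 3.

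Genes of mitosis read higher in ERBOE almost as a block. Of 69 members measured, 68 read higher and 1 lower, 52 were higher on all 3 slides, and 33 were higher at an unadjusted p under 0.05 with 0 lower. The median difference was 1.557, and the medians within slides 1, 2 and 3 were 1.064, 1.610 and 1.797. Plk1, which encodes a kinase that drives entry into mitosis and spindle assembly, had levels of 1.13, 1.99 and 3.06 in ERBOE, against -1.07, -0.32 and 0.46 in PRCre. Kif4, a chromosome-bound kinesin of the spindle midzone, had -2.59, -1.74 and -0.88 in ERBOE, against -5.16, -3.76 and -3.31 in PRCre, where 1 of the 3 arrays was not well above background. Ect2, an exchange factor that positions the cleavage furrow, had -0.44, 0.33 and 1.29 in ERBOE, against -2.31, -2.001 and -1.42 in PRCre. In each of these genes replicate 3 was the highest ERBOE array, the groups did not overlap, and the ERBOE level on each slide was more than 1 log2 unit above its PRCre partner. Tpx2, which activates Aurora A kinase on the spindle, differed by 2.31 ± 0.80, the kinase gene Melk by 2.31 ± 0.84 and the kinetochore gene Cenpf by 2.07 ± 0.78, and Plk1, Kif4 and Ect2 by 2.37 ± 0.69, 2.34 ± 0.82 and 2.31 ± 0.73. Limma adjusted p-values of these genes lay between 0.288 (Plk1) and 0.303 (Cenpf). The member that read lower was Pttg1, the securin gene, at -0.16 ± 0.14. Over the 9 leave-out fits the median was 1.36 to 1.74, and the 33 members became 6 (without slide 3) to 28 (without ERBOE replicate 1), with 15 without PRCre replicate 1.

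The promoters of these genes are shown because many of them hold the pair of elements that goes with late cell-cycle transcription: the cell-cycle homology region TTTGAA, bound by the DREAM and MuvB complexes, and the CCAAT box, bound by NF-Y. RefSeq promoter windows (GRCm38.p6, from 250 bases before to 50 after the annotated start) were found for 57 of the 69 members, and both strands were searched. TTTGAA was in 38 of 57 (66.7%), against 20.2% of 27025 promoters, CCAAT in 70.2%, against 41.1%, and both in 54.4%, against 9.0%. These are matches of letters in a window and not tested sites. The 2 members with the smallest p that hold TTTGAA are Plk1 (chr7:122159185-122159484, plus strand) and Ect2 (chr3:27153829-27154128, minus strand), with matches to either element, on either strand, in capitals.
Plk1: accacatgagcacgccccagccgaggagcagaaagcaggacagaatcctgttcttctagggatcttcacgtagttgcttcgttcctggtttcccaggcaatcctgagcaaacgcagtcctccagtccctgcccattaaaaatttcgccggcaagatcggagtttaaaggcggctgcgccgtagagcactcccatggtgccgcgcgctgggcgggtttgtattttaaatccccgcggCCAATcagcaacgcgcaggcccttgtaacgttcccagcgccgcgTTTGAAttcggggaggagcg
Ect2: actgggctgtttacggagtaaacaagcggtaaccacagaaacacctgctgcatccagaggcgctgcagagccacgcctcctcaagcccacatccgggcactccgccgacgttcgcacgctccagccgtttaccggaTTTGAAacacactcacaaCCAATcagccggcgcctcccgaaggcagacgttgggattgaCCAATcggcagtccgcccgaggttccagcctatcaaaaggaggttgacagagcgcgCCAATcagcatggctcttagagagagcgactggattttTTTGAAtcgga
In Plk1 the TTTGAA began 31 bases after the start and the CCAAT 14 bases before it. Ect2 held 2 TTTGAA and 3 CCAAT matches, the TTTGAA nearer the start beginning at base 40 after it.

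Genes of DNA replication read higher by less. Of 52 members, 49 read higher and 3 lower, 6 were higher and 1 lower at an unadjusted p under 0.05, and the median difference was 0.681, with 0.509, 0.352 and 1.110 within slides 1, 2 and 3. Mcm10, an initiation factor that acts with the replicative helicase, had levels of -0.41, 0.48 and 1.64 in ERBOE, against -2.03, -1.02 and -0.68 in PRCre, without overlap. Rrm1, the large subunit of ribonucleotide reductase, had 0.72, 1.76 and 2.53 in ERBOE, against -0.19, 0.91 and 1.01 in PRCre, where ERBOE replicate 1 lay below 2 PRCre arrays. Dbf4, the activating subunit of the Cdc7 kinase, differed by 1.54 ± 0.52 and was well above background on 3 ERBOE arrays but 1 PRCre array, so that the size rests on dim signal, and normexp background correction gave 0.83. The chromatin assembly gene Chaf1a differed by 1.34 ± 0.57, the maintenance methyltransferase gene Dnmt1 by 1.17 ± 0.50 and the Fanconi anaemia gene Fanci by 1.45 ± 0.67. Gins3, a helicase cofactor gene, ran the other way, with 3.05, 3.59 and 2.95 in ERBOE, against 4.29, 3.95 and 3.49 in PRCre, a difference of -0.71 ± 0.25. When arrays were left out, the median was 0.46 to 0.88, and the 6 higher members became 0 (without ERBOE replicate 3 or slide 3) to 9 (without PRCre replicate 2), with 1 without PRCre replicate 1. In the promoters of the list, E2F sites of the form TTTCCCGC and TTTGGCGC were each in 17.1% of 41 windows, against 1.2% and 0.6% of all promoters, while TTTGAA was in 19.5%, against 20.2%.

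Among 26 cyclins and inhibitors of the G1 phase, 18 read higher and 8 lower, with a median of 0.341 that ranged from 0.12 (without ERBOE replicate 3) to 0.44 (without ERBOE replicate 1). E2f8, an atypical E2F that represses its targets late in the S phase, differed by 1.55 ± 0.70. Cdkn1c, which encodes the growth inhibitor p57, had 2.26, 1.36 and 2.67 in ERBOE, against 4.73, 2.58 and 3.06 in PRCre, a difference of -1.36 ± 0.55. The Cdkn1c level of ERBOE replicate 3 was above that of PRCre replicate 2.

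Genes of cholesterol synthesis read higher in ERBOE nearly along the whole pathway. Cells make cholesterol from acetyl-CoA through mevalonate and squalene, and the sterol-sensing factor encoded by Srebf2 raises the enzymes together when sterol is short. Of 26 members measured, 25 read higher and 1 lower, 23 were higher on all 3 slides, the groups did not overlap for 14, and 17 were higher at an unadjusted p under 0.05 with 0 lower. The median difference was 1.289, with 0.987, 1.175 and 1.496 within slides 1, 2 and 3. Across these leave-out fits the median was 1.04 to 1.59, and the 17 members became 9 (without ERBOE replicate 2) to 20 (without PRCre replicate 2), with 10 without PRCre replicate 1. Hmgcs1, which encodes the synthase at the entry to the mevalonate pathway, had levels of 2.41, 3.46 and 3.45 in ERBOE, against 0.90, 1.93 and 1.69 in PRCre. Idi1, the isomerase that follows mevalonate decarboxylation, had 0.66, 2.54 and 1.83 in ERBOE, against -0.30, 0.69 and -0.35 in PRCre. Fdps, which makes farnesyl pyrophosphate, had 2.73, 3.92 and 3.51 in ERBOE, against 0.61, 2.20 and 1.37 in PRCre. The groups did not overlap for Hmgcs1 and Fdps, while for Idi1 ERBOE replicate 1 was just below PRCre replicate 2.

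Past squalene the pattern was the same. Sqle, squalene epoxidase, had levels of 1.15, 2.95 and 2.86 in ERBOE, against -0.57, 1.54 and 0.49 in PRCre. Msmo1, a sterol C4-methyl oxidase, had 1.49, 3.44 and 2.79 in ERBOE, against 0.56, 1.46 and 0.78 in PRCre. Tm7sf2, a sterol C14-reductase of the same pathway, had 1.44, 1.66 and 1.04 in ERBOE, against -0.26, -0.18 and 0.03 in PRCre. Replicate 1 was the lowest ERBOE array for Sqle, where it overlapped PRCre, and for Msmo1, where it was just above PRCre replicate 2, whereas the groups lay clearly apart for Tm7sf2. The differences were 1.60 ± 0.37 for Hmgcs1, 1.99 ± 0.53 for Fdps, 1.83 ± 0.74 for Sqle, 1.66 ± 0.64 for Idi1, 1.64 ± 0.53 for Msmo1 and 1.52 ± 0.25 for Tm7sf2, with limma adjusted p from 0.167 (Tm7sf2) to 0.323 (Sqle). The sensor gene Srebf2 itself read higher by 1.45 ± 0.49.

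**Figure D2:**
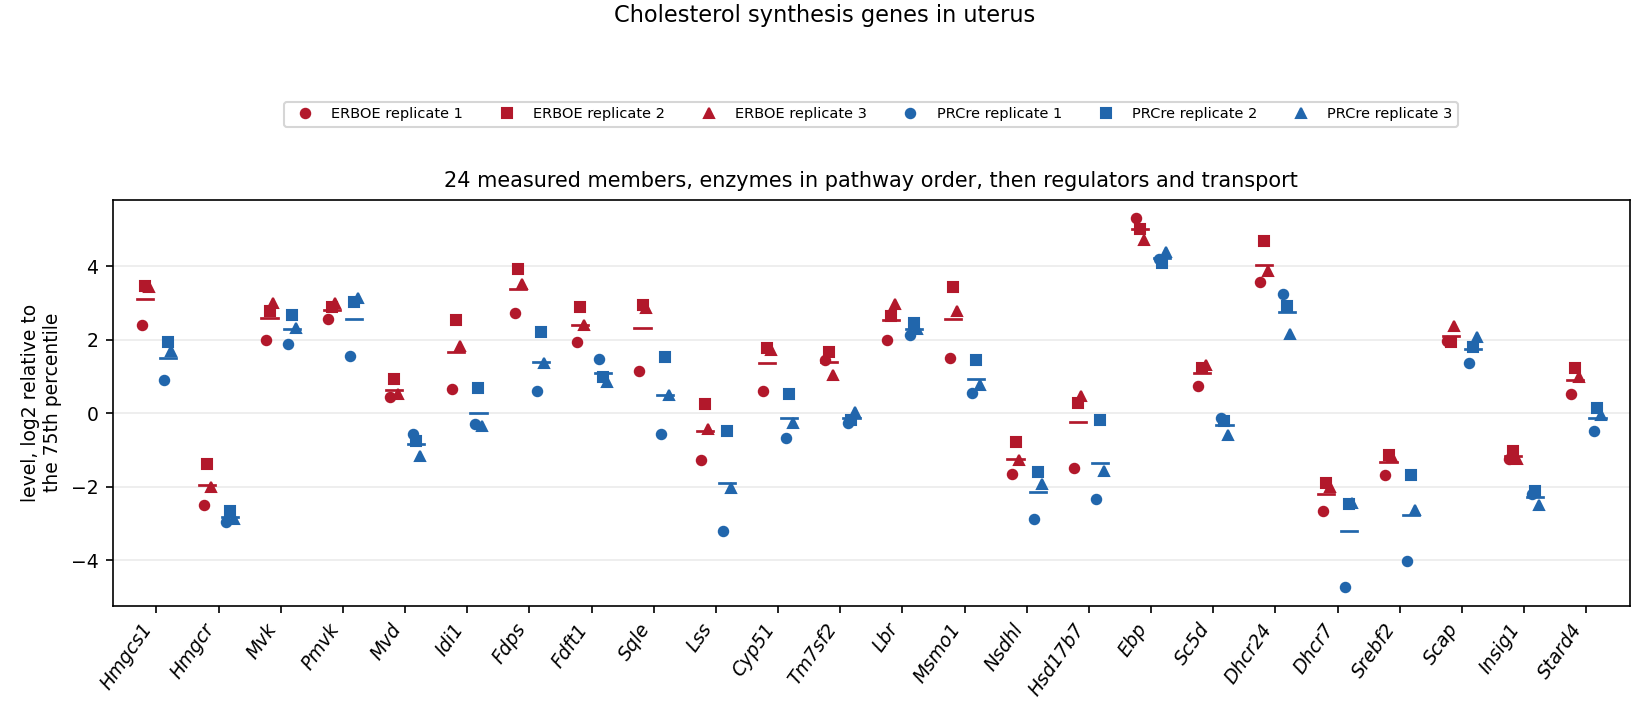
Levels of 24 of the 26 measured cholesterol synthesis genes on each uterus array (vertical axis, log2 relative to the array's 75th percentile), enzymes in pathway order followed by regulators and a transport gene. Red symbols at the left of each gene are the 3 ERBOE arrays, blue symbols at the right the 3 PRCre arrays, symbol shape gives the replicate and the short line the mean. The ERBOE mean was the higher for all 24 genes plotted, and the 1 member that read lower is not among them.

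Promoters of this list are shown because nearly all hold the CCAAT box, which NF-Y is known to bind beside the sterol factor. Windows were found for 18 of the 26 members. CCAAT was in 17 of the 18 (94.4%), against 41.1% of all promoters, and the SP1 box GGGCGG was in 94.4%, against 38.2%. The SP1 box was not particular to this list. It was in 78.9% of mitosis, 73.2% of DNA replication and 80.0% of epithelial keratin and junction windows, and in 38.1% of oestrogen-induced windows. The 2 members with the smallest p that hold CCAAT are Tm7sf2 (chr19:6067801-6068100, minus strand) and Hmgcs1 (chr13:119690101-119690400, plus strand), with CCAAT matches on either strand in capitals, so that ATTGG is the reverse complement.
Tm7sf2: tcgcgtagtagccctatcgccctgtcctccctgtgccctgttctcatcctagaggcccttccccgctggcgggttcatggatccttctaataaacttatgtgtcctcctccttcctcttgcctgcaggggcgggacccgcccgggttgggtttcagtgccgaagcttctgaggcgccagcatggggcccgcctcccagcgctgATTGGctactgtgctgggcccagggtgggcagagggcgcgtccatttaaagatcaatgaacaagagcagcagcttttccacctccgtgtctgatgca
Hmgcs1: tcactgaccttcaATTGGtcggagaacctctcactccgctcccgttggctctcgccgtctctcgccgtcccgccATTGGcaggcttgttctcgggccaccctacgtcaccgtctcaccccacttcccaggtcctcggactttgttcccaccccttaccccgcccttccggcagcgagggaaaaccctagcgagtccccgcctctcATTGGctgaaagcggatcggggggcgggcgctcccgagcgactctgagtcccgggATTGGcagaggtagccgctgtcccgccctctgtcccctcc
The single match in Tm7sf2 began 47 bases before the start, and Hmgcs1 held 4, of which 1 began 45 bases before the start.

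Fatty acid synthesis genes read higher too, with a smaller median. Of 20 members 17 read higher and 3 lower, 5 were higher and 0 lower at an unadjusted p under 0.05, and the median was 0.493. Over the leave-out fits the median was 0.35 to 0.63 and the 5 members became 2 (without ERBOE replicate 1 or slide 1) to 8 (without PRCre replicate 2). Fasn, fatty acid synthase, had levels of 4.86, 5.13 and 4.86 in ERBOE, against 2.08, 4.21 and 4.76 in PRCre, and its difference of 1.27 ± 0.45 was made of 2.78, 0.92 and 0.10 on slides 1, 2 and 3. Acly, which makes acetyl-CoA from citrate, had 3.64, 3.78 and 3.70 in ERBOE, against 2.61, 3.39 and 3.21 in PRCre, without overlap. Me1, the malic enzyme that supplies reducing power, had 1.62, 1.48 and 1.09 in ERBOE, against 0.83, 0.77 and 0.24 in PRCre, also without overlap. Acacb, an acetyl-CoA carboxylase, differed by 1.32 ± 0.40 and Acsl5, an acyl-CoA synthetase, by 0.76 ± 0.24. Fads1, a fatty acid desaturase gene, read lower by -0.45 ± 0.25, and higher by 0.08 when the mean of its probes stood for the gene.

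Markers of epithelial keratins and junctions read higher in ERBOE. Of 34 members, 32 read higher, 26 on all 3 slides, 20 had ERBOE arrays wholly above PRCre, and 20 were higher at an unadjusted p under 0.05 with 0 lower. The median was 1.072, with 1.312, 1.516 and 0.966 within slides 1, 2 and 3. The summed linear level of the list was 371 to 702 in ERBOE, against 183 to 275 in PRCre, in units of the 75th percentile signal. In these bulk samples more cells of a type and more RNA per cell cannot be told apart, and the part of this higher epithelial signal in the mitosis, cholesterol and oestrogen-induced results was not tested. Evpl, which encodes the desmosomal plaque protein envoplakin, had levels of 3.38, 3.00 and 2.60 in ERBOE, against 0.24, 0.88 and 0.44 in PRCre. Dsp, desmoplakin, had 2.49, 2.18 and 1.39 in ERBOE, against 0.12, -0.46 and -0.79 in PRCre. Lad1, ladinin of the basement membrane zone, had 4.53, 4.58 and 3.86 in ERBOE, against 2.89, 2.47 and 1.01 in PRCre. None of the 3 overlapped between groups, and for Dsp and Lad1 replicate 3 was the lowest in both groups. Differences were 2.47 ± 0.66 for Evpl, 2.39 ± 0.72 for Dsp, 2.20 ± 0.63 for Lad1, 2.40 ± 0.91 for the simple-epithelium keratin gene Krt19 and 1.99 ± 0.57 for Cdh1, the E-cadherin gene, with limma adjusted p from 0.275 (Evpl) to 0.303 (Krt19). Dsc2, a desmosomal cadherin gene, was well above background on 3 ERBOE and 0 PRCre arrays and at least 2.07-fold higher, a bound computed against the lowest signal called above background on the PRCre arrays. The 2 claudin genes Cldn10 and Cldn4 ran the other way, at -0.83 ± 0.95 and -0.47 ± 0.53. When arrays were left out, the median was 0.99 to 1.53, and the 20 members became 6 (without ERBOE replicate 1 or slide 2), 8 (without PRCre replicate 3) or 10 (without ERBOE replicate 2) at the low end and 24 (without ERBOE replicate 3) at the high end.

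Regulators of epithelial identity showed the same direction with fewer members apart. Of 31 members 28 read higher, 6 at an unadjusted p under 0.05 with 0 lower, and the median was 0.618. Across these leave-out fits the median was 0.41 to 1.01, and the 6 members became 1 (without ERBOE replicate 1, ERBOE replicate 2 or slide 2) to 9 (without ERBOE replicate 3). The summed level of these regulators was 104 to 190 in ERBOE, against 73.1 to 192 in PRCre, with overlap. Grhl3, a grainyhead-like factor of barrier-forming epithelia, had levels of -2.47, -2.50 and -2.52 in ERBOE, where all 3 arrays were well above background, and was well above background on 0 of 3 PRCre arrays, which makes it at least 2.93-fold higher (limma adjusted p = 0.291). Its relative Grhl2 had 1.65, 1.68 and 1.21 in ERBOE, against 0.35, 0.35 and 0.53 in PRCre. Klf5, a Krüppel-like factor of dividing epithelium, had 0.80, 0.50 and 0.38 in ERBOE, against -0.71, -0.33 and -0.47 in PRCre. Both were higher on every ERBOE array than on any PRCre array, by 1.103 ± 0.41 and 1.07 ± 0.40. Esrp1, an epithelial splicing regulator gene, differed by 1.24 ± 0.51, and the gene of the membrane protease matriptase, St14, by 1.26 ± 0.53.

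**Figure D3:**
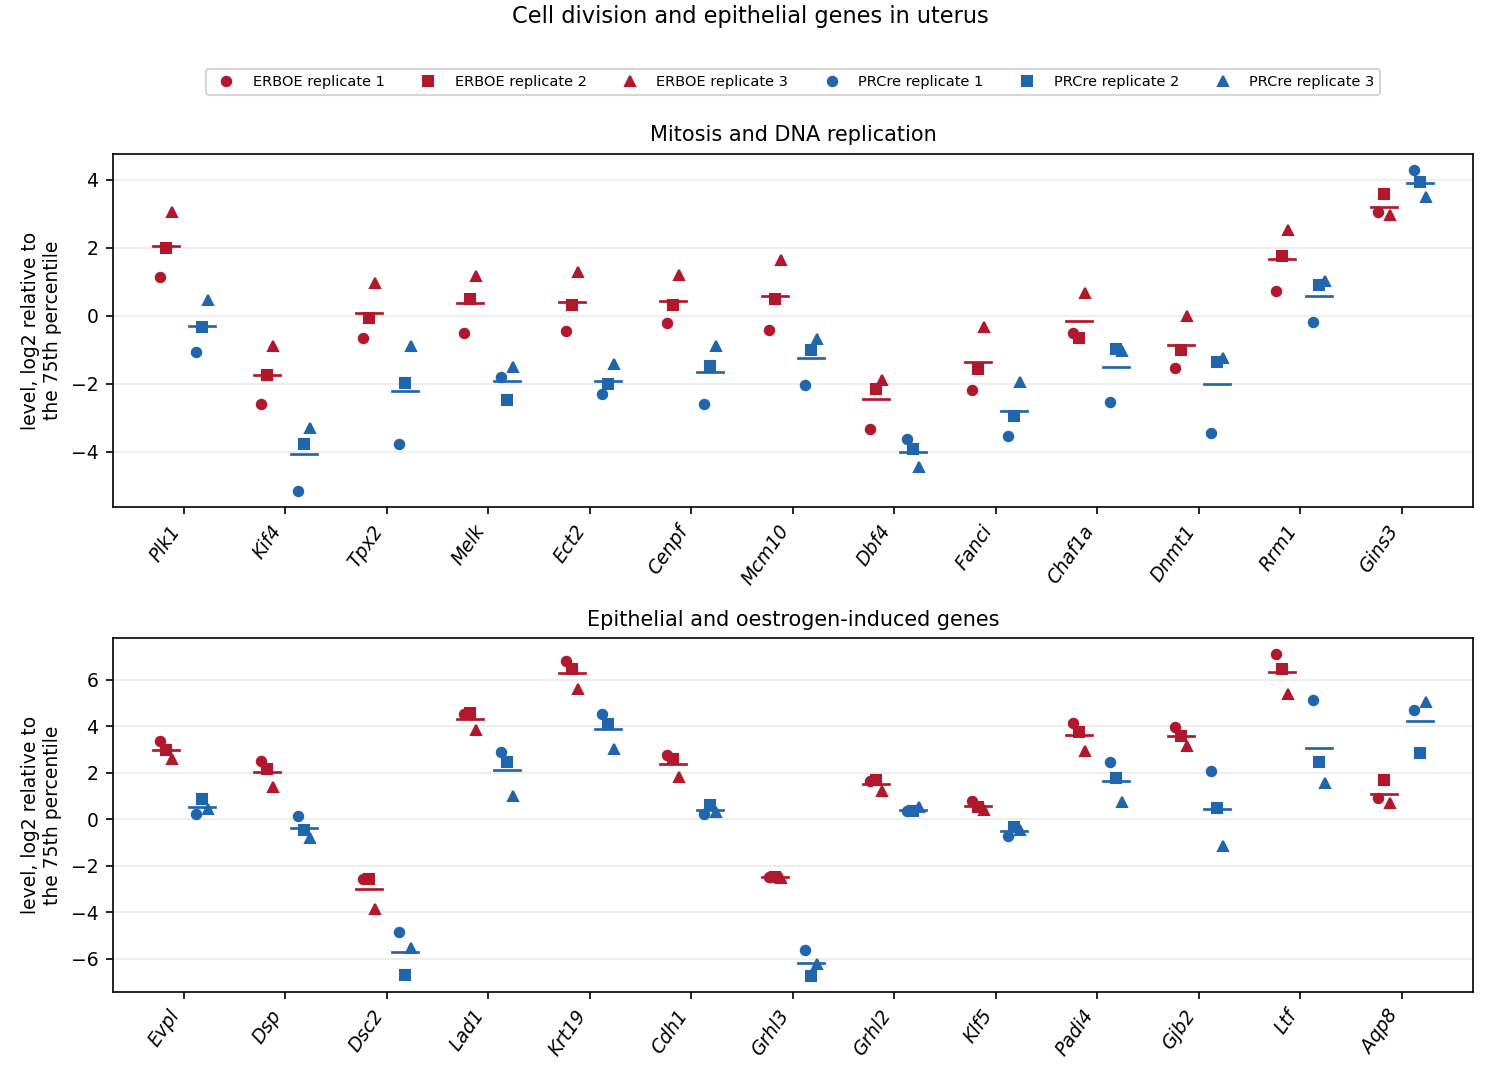
Levels (vertical axis, log2 relative to the array's 75th percentile) of genes of mitosis and DNA replication in the upper panel and of epithelial and oestrogen-induced genes in the lower panel. Red symbols at the left of each gene are the 3 ERBOE arrays, blue symbols at the right the 3 PRCre arrays, symbol shape gives the replicate and the short line the mean. ERBOE symbols lay above PRCre symbols for Plk1, Melk, Ect2 and Evpl, and below for Aqp8.

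Genes known to be induced by oestrogen in the uterus had a high median with wide spread. Of 27 members 21 read higher and 6 lower, 5 were higher and 0 lower at an unadjusted p under 0.05, and the median was 1.481, with 1.195, 1.828 and 1.716 within slides 1, 2 and 3. Over the leave-out fits the count of 5 became 2 (without ERBOE replicate 1 or PRCre replicate 3) to 9 (without PRCre replicate 1), and the median 1.12 (without PRCre replicate 3) to 2.05 (without PRCre replicate 1). Padi4, a peptidylarginine deiminase gene, had levels of 4.16, 3.77 and 2.92 in ERBOE, against 2.46, 1.77 and 0.73 in PRCre. Gjb2, which encodes connexin 26 of epithelial gap junctions, had 3.98, 3.57 and 3.16 in ERBOE, against 2.06, 0.47 and -1.17 in PRCre. Ltf, lactoferrin, a secreted protein that oestrogen raises in the mouse uterus, had 7.09, 6.47 and 5.38 in ERBOE, against 5.13, 2.46 and 1.56 in PRCre. In each of them the ERBOE arrays lay wholly above, replicate 1 was the highest PRCre array, and the difference was smallest on slide 1. Differences were 1.97 ± 0.59, 3.11 ± 1.36 and 3.26 ± 1.74, with limma adjusted p of 0.289, 0.348 and 0.423. C3, complement component 3, differed by 1.56 ± 0.56 and the keratin gene Krt7 by 1.61 ± 0.64. Aqp8, a water channel gene, was the widest exception, with 0.90, 1.68 and 0.69 in ERBOE, against 4.69, 2.87 and 5.06 in PRCre, and a difference of -3.12 ± 2.37. Greb1, a coregulator gene that oestrogen induces in breast cancer cells, differed by 0.12 ± 0.54, and Igf1, the growth factor gene, by -0.98 ± 0.68. The full palindromic oestrogen response element was in 0 of the 21 promoter windows found for this list, against 0.1% of all promoters, and these letters may lie outside the windows.

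Progesterone-responsive and Indian hedgehog genes leaned lower. Of 24 members 20 read lower and 4 higher, 3 were lower and 0 higher at an unadjusted p under 0.05, and the median was -0.414. The slides disagreed: the medians were 0.106, -0.701 and -0.864 within slides 1, 2 and 3. When arrays were left out, the median was -0.87 (without PRCre replicate 1) to -0.12 (without slide 3), 10 of 24 rather than 4 read higher without ERBOE replicate 3 or slide 3, and the 3 lower members became 0 without ERBOE replicate 1 or PRCre replicate 2. Hhip, the hedgehog-binding inhibitor that the pathway induces, had levels of -6.21, -3.21 and -2.01 in ERBOE, against -2.48, -1.09 and -1.47 in PRCre, and was well above background on 2 of 3 ERBOE arrays. Calca, the calcitonin gene that progesterone raises in the uterus, had -4.91, -4.38 and -4.07 in ERBOE, against -3.47, -1.50 and -3.41 in PRCre, on 2 of 3 arrays of each group well above background. Hhip and Calca differed by -2.13 ± 0.86 and -1.66 ± 0.66 and read lower on every slide. The ligand gene Ihh differed by -0.32 ± 1.67.

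Gland markers were mixed, with wide differences in a few secreted proteins. Of 19 members 13 read lower and 6 higher, with a median of -0.570. That median was -0.13 with normexp, -0.18 with array weights, -0.21 when 3 of the 6 uterus arrays had to be well above background, and -0.23 without PRCre replicate 2. Wfdc3, a whey acidic protein family gene, had levels of -5.22, -3.75 and -4.63 in ERBOE, where 1 of 3 arrays was well above background, against -2.53, 0.96 and 1.71 in PRCre. Spink1, a secreted trypsin inhibitor, had -4.42, -2.18 and -6.57 in ERBOE, where 2 of 3 arrays were well above background, against -2.94, 5.88 and 3.64 in PRCre. Prss28, a serine protease of the implantation-stage gland, had -2.16, -1.25 and -2.84 in ERBOE, against -2.59, 5.20 and 2.21 in PRCre. For all 3 genes PRCre replicates 2 and 3 were high and PRCre replicate 1 was low, within the ERBOE range for Spink1 and Prss28. The differences were -4.58 ± 0.99, -6.58 ± 3.26 and -3.69 ± 2.64 (limma adjusted p = 0.224, 0.395 and 0.539). The sizes for Wfdc3 and Spink1 rest in part on levels not well above background, and normexp gave -2.94 for Wfdc3. The summed level of the list was 108 to 325 in ERBOE, against 138 to 328 in PRCre.

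Ligands that act between epithelium and stroma went both ways. Inhba, which encodes the subunit of activin A, had levels of 0.83, 0.46 and 1.57 in ERBOE, against -3.08, -1.74 and -2.26 in PRCre, higher by 3.31 ± 0.69 (limma adjusted p = 0.224). Wnt4, a ligand of stroma and epithelium, had 3.44, 3.10 and 3.40 in ERBOE, against 1.87, 0.12 and -0.54 in PRCre. Wnt7b, an epithelial ligand, had 1.69, 1.24 and 1.65 in ERBOE, against 0.11, -0.03 and -1.15 in PRCre. The 3 ligand genes were higher on all ERBOE arrays than on any PRCre array. Wnt6 ran the other way, with -4.40, -5.74 and -4.18 in ERBOE, against -2.47, -2.53 and -1.38 in PRCre. Its -5.74 on ERBOE replicate 2 was not well above background. As lists these families were near even. Of 34 TGF-beta, activin and BMP genes 17 read higher and 17 lower, 4 higher and 1 lower at an unadjusted p under 0.05, with a median of -0.026. Of 36 Wnt genes 20 read higher and 16 lower, 4 higher and 3 lower at that p. The Wnt median was 0.136, and the slide medians were 0.452, -0.045 and -0.040. The receptor gene Lgr4 differed by 1.26 ± 0.36 and the transcription factor gene Tcf7 by 1.87 ± 0.47. Of 14 genes of the EGF family 10 read higher and 4 lower, 3 higher and 0 lower at that p. The EGF median was 0.405, with slide medians of 0.617, 0.294 and 0.114. Erbb2, the co-receptor, differed by 1.17 ± 0.36, and Lrig1, an inhibitor of the receptors, by 1.42 ± 0.52.

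Stroma and muscle did not move as blocks. Of 22 stromal markers 13 read lower and 9 higher, 4 lower and 1 higher at an unadjusted p under 0.05, with a median of -0.281, and slide medians of 0.299, -0.618 and -0.403. The stromal median was -0.53 without slide 1 and 0.05 without slide 3. Vim, vimentin, had levels of 4.23, 4.39 and 3.99 in ERBOE, against 5.59, 5.15 and 5.31 in PRCre, without overlap. Dcn, decorin, had 8.49, 8.04 and 7.22 in ERBOE, against 9.62, 8.14 and 8.35 in PRCre, with overlap. Vim, Lum, the gene of lumican, Dcn and the homeobox gene Hoxd10 differed by -1.14 ± 0.33, -0.95 ± 0.35, -0.79 ± 0.27 and -0.69 ± 0.26, while Anpep, an aminopeptidase gene, read higher by 1.79 ± 0.75. The summed level of the stromal list was 457 to 624 in ERBOE, against 605 to 1027 in PRCre. Of 23 smooth muscle markers 12 read higher and 11 lower, 0 in either direction at an unadjusted p under 0.05, with a median of 0.034 that was -0.31 without PRCre replicate 1 and 0.26 without PRCre replicate 3. Oxtr, the oxytocin receptor gene, differed by 1.68 ± 0.90.

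Blood vessel markers read lower as a list on slides 2 and 3 and higher on slide 1. Of 36 members 29 read lower and 7 higher, 8 lower and 2 higher at an unadjusted p under 0.05, and the median was -0.503. The slide medians were 0.590, -1.108 and -0.918. Across these leave-out fits the median was -1.09 (without PRCre replicate 1) to -0.16 (without slide 2), and the 8 lower members became 24 and 4 in the same fits. Tek, the angiopoietin receptor gene, had levels of -2.89, -3.09 and -3.10 in ERBOE, against -1.62, -1.97 and -1.45 in PRCre. Emcn, endomucin of veins and capillaries, had 1.24, 1.13 and 2.03 in ERBOE, against 1.81, 2.64 and 2.88 in PRCre. Egfl7, a secreted factor of endothelium, had 4.61, 4.49 and 4.56 in ERBOE, against 4.90, 6.00 and 5.99 in PRCre, where replicate 1 was nearest to the ERBOE arrays. Tek did not overlap between groups and Emcn did. Differences were -1.35 ± 0.37 for Tek, -0.98 ± 0.32 for Emcn, -1.08 ± 0.37 for Egfl7, -1.14 ± 0.35 for the transcription factor gene Tal1 and -1.77 ± 0.60 for Angpt1, the ligand of Tek. Esm1, a proteoglycan gene of sprouting tip cells, ran the other way, with 0.54, 0.73 and 0.87 in ERBOE, against -4.35, -1.02 and -1.75 in PRCre. Its -4.35 on PRCre replicate 1 was not well above background, so the size on slide 1 rests on dim signal. Sox7, an endothelial factor gene, differed by 2.11 ± 0.90.

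Lymphatic markers read lower throughout. All 14 members measured read lower, 11 on all 3 slides, 7 with ERBOE arrays wholly below PRCre, and 5 at an unadjusted p under 0.05 with 0 higher. The median was -0.762, with -0.396, -0.334 and -0.620 within slides 1, 2 and 3, and it was -0.597 with 13 of 14 lower when arrays were scaled to their median. Over the leave-out fits the median was -0.84 to -0.53, with 11 to 14 members lower and 3 (among them without ERBOE replicate 1) to 6 (without PRCre replicate 1) at that p. The summed level was 30.6 to 39.1 in ERBOE, against 50.6 to 61.0 in PRCre, without overlap. Prox1, the factor that sets lymphatic identity, had levels of -3.21, -3.91 and -3.96 in ERBOE, against -3.10, -2.33 and -2.72 in PRCre. Ccl21a, a chemokine of lymphatic endothelium with near-identical copies that its probe may share, had 3.38, 3.71 and 4.25 in ERBOE, against 4.83, 4.45 and 4.95 in PRCre. Mmrn1, multimerin, had -1.46, -0.99 and -1.12 in ERBOE, against 0.54, -0.87 and -0.57 in PRCre. Vegfd, a growth factor for lymphatic vessels, had 1.45, 0.97 and 0.06 in ERBOE, against 3.17, 2.11 and 2.72 in PRCre. All 4 were lower on every ERBOE array than on any PRCre array, by -0.98 ± 0.38, -0.96 ± 0.32, -0.89 ± 0.36 and -1.84 ± 0.39 (limma adjusted p from 0.224 for Vegfd to 0.322 for Mmrn1). Flt4, the receptor of this ligand, was well above background on 0 ERBOE arrays and 1 PRCre array and allows no fold.

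**Figure D4:**
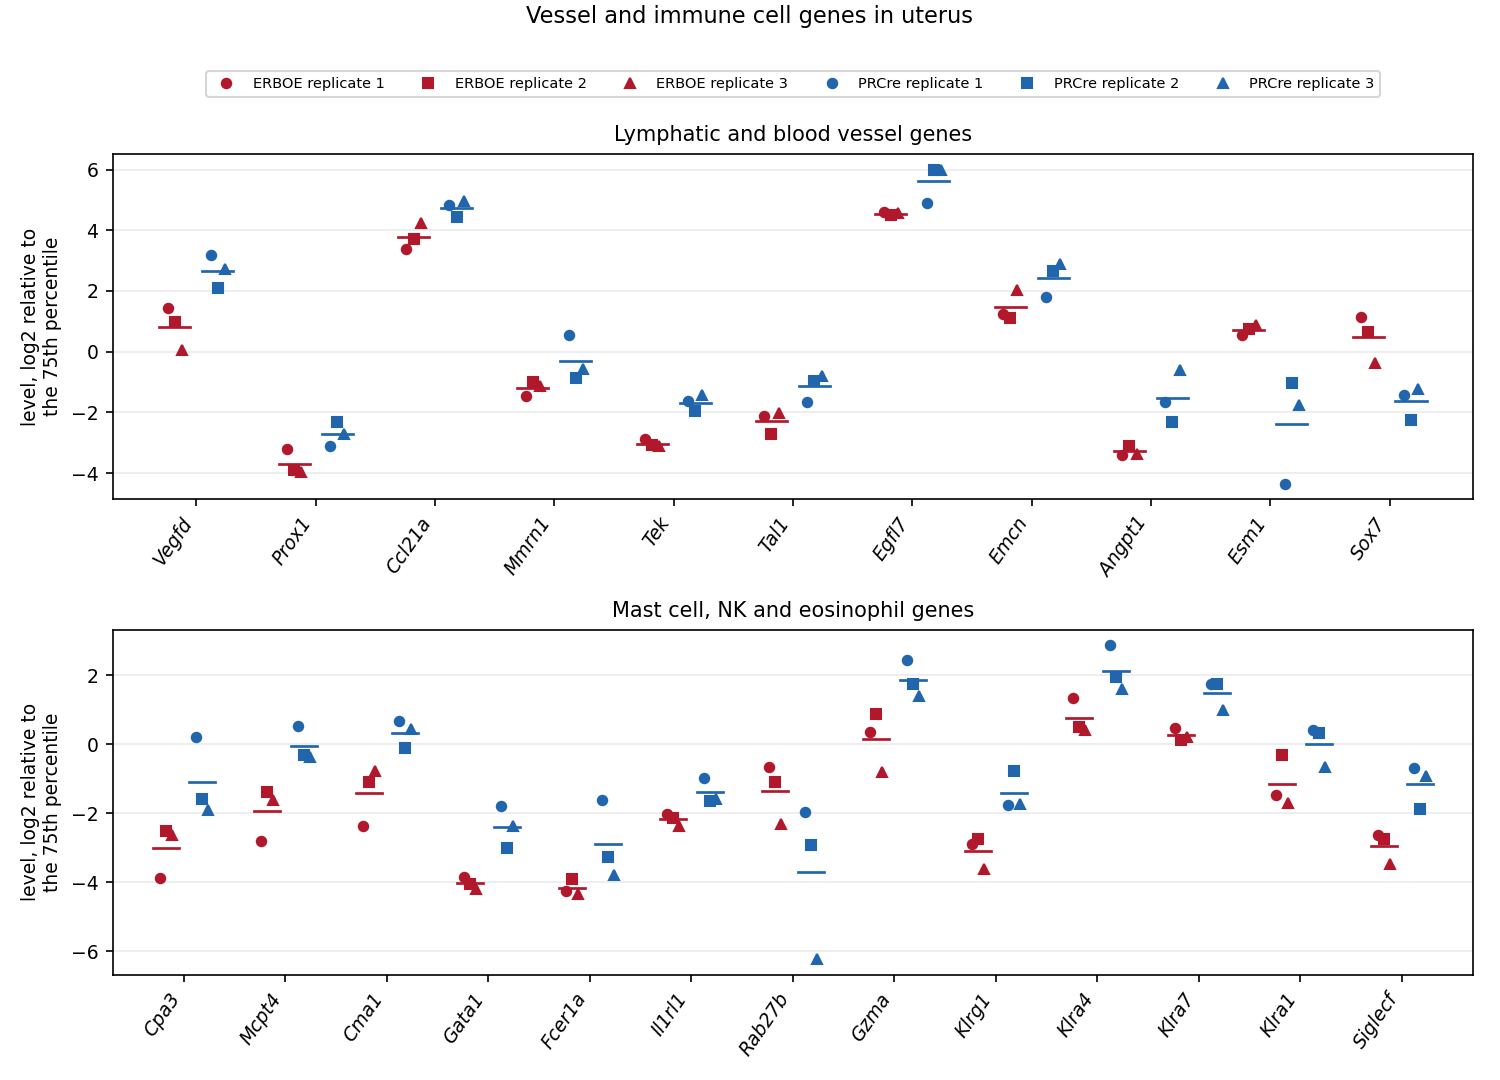
Levels (vertical axis, log2 relative to the array's 75th percentile) of lymphatic and blood vessel genes in the upper panel and of mast cell, NK and eosinophil genes in the lower panel. Red symbols at the left of each gene are the 3 ERBOE arrays, blue symbols at the right the 3 PRCre arrays, symbol shape gives the replicate and the short line the mean. ERBOE symbols lay below PRCre symbols for Vegfd, Tek, Gata1 and Klra4, and above for Esm1 and Sox7.

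Mast cell markers read lower. Of 21 listed genes 11 were measured, 9 of them lower and 2 higher, 6 lower and 1 higher at an unadjusted p under 0.05, and the median was -1.276. The slide medians were -1.022, -0.951 and -0.785, and each of the 6 genes named as lower here had its highest level on PRCre replicate 1. When arrays were left out, the median was -1.49 to -0.71, and the 6 lower members became 0 without ERBOE replicate 1, 2 without PRCre replicate 1 and 6 without PRCre replicate 2. Cpa3, the mast cell carboxypeptidase, had levels of -3.88, -2.53 and -2.63 in ERBOE, against 0.20, -1.58 and -1.92 in PRCre. Cma1, a chymase of connective tissue mast cells, had -2.38, -1.09 and -0.78 in ERBOE, against 0.67, -0.11 and 0.44 in PRCre. Gata1, a factor of mast cell and erythroid lineages, had -3.85, -4.04 and -4.19 in ERBOE, against -1.80, -3.001 and -2.38 in PRCre. The 3 genes did not overlap between groups. Differences were -1.92 ± 0.69 for Cpa3, -1.75 ± 0.65 for Cma1, -1.63 ± 0.72 for Gata1, -1.87 ± 0.69 for the chymase gene Mcpt4, -1.28 ± 0.45 for Fcer1a, a subunit of the IgE receptor, and -0.77 ± 0.35 for Il1rl1, the interleukin-33 receptor. The summed level was 4.73 to 5.82 in ERBOE, against 8.46 to 27.9 in PRCre. Rab27b, a secretion gene that other cells also use, read higher by 2.34 ± 1.00.

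Markers of natural killer cells and other cytotoxic lymphocytes read lower as well. Of 31 members 30 read lower and 1 higher, 19 were lower on all 3 slides, 14 had ERBOE arrays wholly below PRCre, and 9 were lower and 0 higher at an unadjusted p under 0.05. The median was -1.001, with -1.115, -1.301 and -0.551 within slides 1, 2 and 3. Across these leave-out fits the median was -1.27 (without PRCre replicate 3) to -0.70 (without PRCre replicate 1), and the 9 lower members became 12 and 3 in the same fits. Gzma, granzyme A, had levels of 0.35, 0.87 and -0.81 in ERBOE, against 2.43, 1.73 and 1.40 in PRCre. Klrg1, an inhibitory receptor of mature killer cells, had -2.88, -2.75 and -3.61 in ERBOE, against -1.77, -0.77 and -1.74 in PRCre. Klra4, a receptor of the Ly49 family, had 1.32, 0.50 and 0.41 in ERBOE, against 2.86, 1.93 and 1.59 in PRCre. None of the 3 overlapped. The Ly49 genes Klra4, Klra7 and Klra1 differed by -1.38 ± 0.51, -1.22 ± 0.55 and -1.18 ± 0.41, and since these are closely related copies their probes may read each other's transcripts. Gzma and Klrg1 differed by -1.72 ± 0.63 and -1.66 ± 0.67 (limma adjusted p = 0.298 and 0.323). The summed level was 23.4 to 26.5 in ERBOE, against 37.7 to 56.7 in PRCre, without overlap.

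Other leukocyte lists moved less. Of 21 T cell genes 19 read lower, with a median of -0.347, but 0 were lower at an unadjusted p under 0.05 and 1, Ccr7, a homing receptor, was higher, at 1.40 ± 0.50. Of 25 macrophage genes 18 read lower, with a median of -0.336 and 1 lower at that p, Ccr2, a monocyte chemokine receptor, at -1.20 ± 0.43. Among 10 eosinophil genes 7 read lower and 3 higher, 1 lower and 0 higher at that p, with a median of -0.448. The slide medians of this list were -1.511, 0.748 and 0.013, and its leave-out medians were not computed. Its summed level was 3.26 to 6.0 in ERBOE, against 3.72 to 13.7 in PRCre, with overlap. The eosinophil receptor gene Siglecf had levels of -2.63, -2.75 and -3.46 in ERBOE, against -0.70, -1.87 and -0.92 in PRCre. The summed level of the macrophage list was 71.5 to 105 in ERBOE, against 87.5 to 188 in PRCre, and of the T cell list 27.4 to 37.2 in ERBOE, against 22.5 to 44.1 in PRCre, both with overlap. The T cell median was -0.67 without ERBOE replicate 3 and -0.12 without ERBOE replicate 2, and the macrophage median -0.70 without PRCre replicate 2 and -0.12 without PRCre replicate 1.

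Inflammatory, cell death and interferon genes were listed because oestrogen receptor beta is known to act on tumour necrosis factor signalling, the inflammasome and the apoptosome in endometriotic tissue of mice. Of 35 TNF and NF-kB response genes 18 read higher and 17 lower, 1 higher and 0 lower at an unadjusted p under 0.05, with a median of 0.060. Of 24 inflammasome and interleukin-1 genes 11 read higher and 13 lower, 2 higher and 1 lower at that p, with a median of -0.085. Il33, an alarmin held in epithelial and stromal nuclei, had levels of -1.26, -0.47 and -0.85 in ERBOE, against -2.18, -3.02 and -2.03 in PRCre, higher by 1.55 ± 0.51. Nlrp10, a sensor-family gene, had -4.42, -3.75 and -4.70 in ERBOE, against -2.37, -3.45 and -3.49 in PRCre, and its -4.70 on ERBOE replicate 3 was not well above background. Of 26 apoptosis regulators 13 read higher and 13 lower, with a median of 0.027: the effector gene Bak1 differed by 0.91 ± 0.39, Trp53 by 0.70 ± 0.28 and Bbc3, a target of the Trp53 product, by -0.62 ± 0.24. The medians of these 3 lists were 0.22, 0.08 and 0.19 when arrays were scaled to their median, their slide medians differed in sign, and each list's median took both signs over the leave-out fits. Of 36 interferon-induced genes 31 read higher and 5 lower, with a median of 0.443, 1 higher and 0 lower at an unadjusted p under 0.05, and slide medians of 0.265, 1.221 and 0.035. That 1 was Oas3, an antiviral oligoadenylate synthetase, at 2.32 ± 1.03, well above background on 3 ERBOE arrays and 1 PRCre array, so that the size rests on dim signal, and normexp gave 1.19. Over the leave-out fits the interferon median was 0.19 with 23 of 36 higher and 0 at that p (without slide 2) to 0.91 with 33 of 36 higher and 6 at that p (without ERBOE replicate 3), and all 36 read higher without PRCre replicate 1.

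Of 36 glycolysis and hypoxia genes 26 read higher and 10 lower, 6 higher and 0 lower at an unadjusted p under 0.05, with a median of 0.302. The 6 members became 1 without ERBOE replicate 1 or ERBOE replicate 2 and 0 without slide 1, and the median was 0.13 without PRCre replicate 1. Aldoc, an aldolase gene, had levels of 3.80, 3.15 and 1.72 in ERBOE, against 1.63, -1.54 and 0.36 in PRCre. Car9, a carbonic anhydrase that hypoxia induces, had -0.0023, -0.11 and -1.09 in ERBOE, against -1.82, -1.86 and -2.24 in PRCre. Eno1, enolase, had 5.33, 5.35 and 5.06 in ERBOE, against 4.06, 4.65 and 4.59 in PRCre. The 3 genes were higher on every ERBOE array than on any PRCre array, by 2.74 ± 1.17, 1.57 ± 0.69 and 0.81 ± 0.26, and Pfkl, a phosphofructokinase gene, differed by 0.95 ± 0.39.

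Among all genes with a symbol, whether in a list or not, those with the smallest p and groups that did not overlap were named in each direction. None passed. On the higher side, Mogat2, a monoacylglycerol acyltransferase of fat assembly, had levels of 4.44, 3.40 and 2.79 in ERBOE, against 1.82, 0.87 and -0.11 in PRCre. Qprt, an enzyme of NAD synthesis from tryptophan, had -0.42, 0.22 and 0.64 in ERBOE, against -2.79, -1.37 and -2.49 in PRCre. Fam20a, a pseudokinase of the secretory pathway, had 2.06, 1.71 and 2.68 in ERBOE, against 0.35, 1.14 and 0.72 in PRCre. Their differences were 2.69 ± 0.54, 2.36 ± 0.46 and 1.41 ± 0.28 (limma adjusted p = 0.212, 0.212 and 0.212). Ephx1, a detoxifying epoxide hydrolase, the kinase gene Dyrk3, the transporter gene Slc16a6 and the adaptor gene Garem1 differed by 1.25 ± 0.22, 1.28 ± 0.22, 1.62 ± 0.31 and 1.16 ± 0.24. Ms4a8a, a membrane protein gene, was well above background on 3 ERBOE and 0 PRCre arrays and at least 2.82-fold higher.

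On the lower side, Cpne7, a calcium-binding copine gene, had levels of 0.23, -0.34 and -0.41 in ERBOE, against 2.89, 1.64 and 0.94 in PRCre. Fyn, a Src-family kinase, had -1.86, -1.90 and -1.66 in ERBOE, against -1.004, -0.98 and -0.59 in PRCre. Gstk1, a mitochondrial and peroxisomal glutathione transferase, had 0.48, 0.47 and 1.18 in ERBOE, against 1.92, 1.58 and 1.80 in PRCre. Their differences were -2.001 ± 0.33, -0.95 ± 0.16 and -1.06 ± 0.20 (limma adjusted p = 0.167, 0.167 and 0.202). The lipid-binding gene Clvs2, the nucleoside diphosphate kinase gene Nme4, the potassium channel gene Kcnn1 and Nol3, an inhibitor of apoptosis, differed by -2.61 ± 0.40, -1.70 ± 0.27, -1.40 ± 0.25 and -1.14 ± 0.21. The endothelial genes Clec14a and Ecscr differed by -1.38 ± 0.23 and -1.20 ± 0.22, and 9430065F17Rik, whose function is not described here, by -2.67 ± 0.48. With array weights, which were 0.174 for PRCre replicate 1 and 6.87 for ERBOE replicate 2, 14 features passed, while 0 passed without PRCre replicate 1, and Tm7sf2, Dyrk3, Cpne7 and 9430065F17Rik were among the 14.

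Markers of tissues that could have been collected with the uterus were examined on the same arrays. Over 8 lists (adipocytes, skeletal muscle, mesothelium, ovary and oviduct, cervix and vagina, intestine and pancreas, erythroid cells and platelets, and nerve) 118 genes were measured, of which 5 were higher and 7 lower at an unadjusted p under 0.05, and list medians lay between -0.604 and 0.041. The summed level of adipocyte genes was 30.6 to 76.9 in ERBOE, against 22.0 to 26.5 in PRCre, without overlap. That of mesothelial genes was 75.1 to 147 in ERBOE, against 46.1 to 61.8 in PRCre, also without overlap. Intestine and pancreas genes lay apart the other way, at 6.61 to 8.32 in ERBOE, against 8.96 to 19.5 in PRCre. By members, 7 adipocyte genes read higher and 12 lower, with a median of -0.200. Of mesothelial genes 6 read higher and 5 lower, and of intestine and pancreas genes 3 higher and 11 lower. The part of these cells in the lipid and other results was not tested.

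The same lists were set beside the genotype differences in the tissues of operated mice, where other arrays were used in both groups. The test of the difference between tissues found 0 of 33185 features past the threshold against eutopic endometrium (0% called, smallest adjusted p = 0.727 in limma) and 0 against ectopic lesions (0% called, smallest adjusted p = 0.246), with 2203 (6.64%) and 2772 (8.35%) at an unadjusted p under 0.05. The medians are therefore values side by side, and tissue cannot be told apart from surgery in them. Oestrogen-induced genes had a median of 1.481 in the uterus, against -0.579 in the eutopic endometrium and -0.216 in lesions. Epithelial keratin and junction genes had 1.072, -0.210 and -0.185 in the same order, and cholesterol synthesis genes 1.289, 0.243 and 0.572. Mitosis genes had 1.557, 0.785 and 0.985, while progesterone and hedgehog genes had -0.414, 0.334 and 0.472. NK genes had -1.001 in the uterus, against -0.090 in the eutopic endometrium and -1.344 in lesions. Mast cell genes had -1.276, -0.301 and 0.075, and lymphatic genes -0.762, -0.260 and 0.040. Dsc2 differed by -0.20 ± 0.82 in eutopic endometrium and -1.47 ± 0.84 in lesions, and Wfdc3 by -0.61 ± 0.99 and 0.24 ± 1.02.

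**Figure D5:**
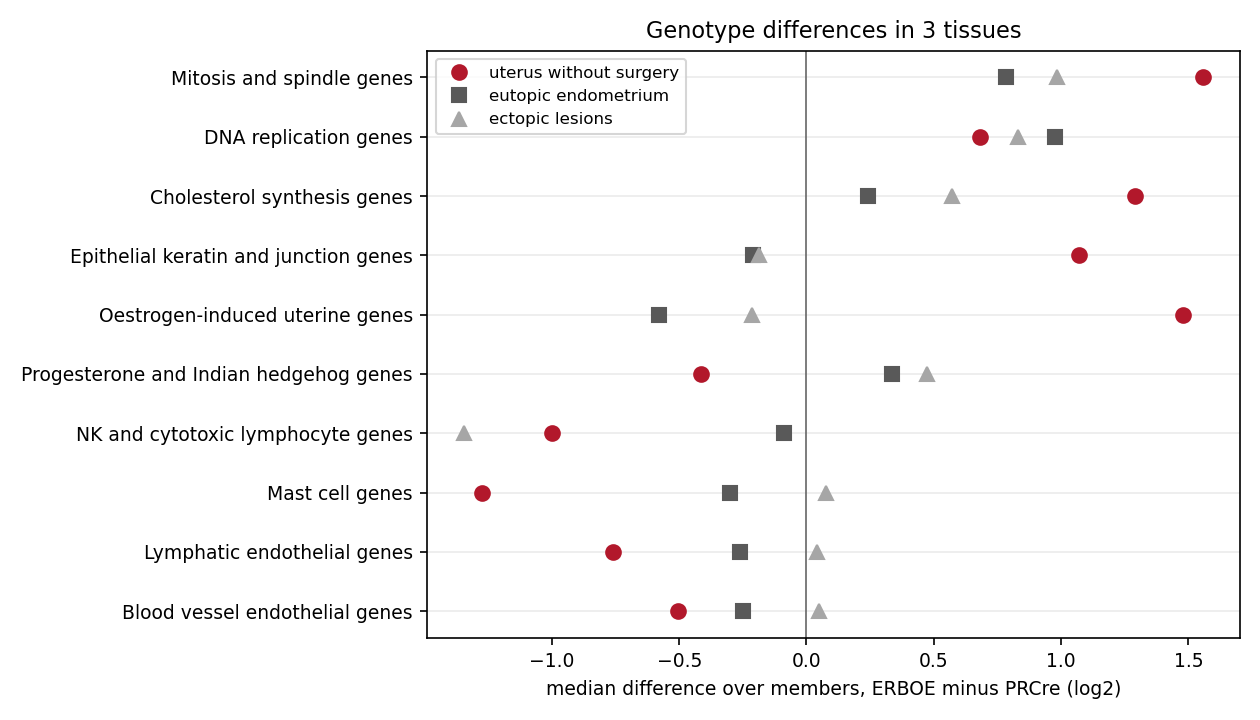
Median difference over list members, ERBOE minus PRCre (log2, horizontal axis), in uterus without surgery (red circles), eutopic endometrium (dark squares) and ectopic lesions (light triangles) for 10 gene lists. Oestrogen-induced and epithelial genes lay above 0 in the uterus and below 0 in the other tissues, NK genes lay low in the uterus and in lesions, and 0 single features passed the test of a difference between tissues.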

How the data were processed

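RNA of pooled uteri was measured on 1-colour Agilent mouse arrays of 56605 probes, 1 pool per array. The scanner intensity per spot was made with Feature Extraction 11.0.1.1, background-subtracted and not normalised between arrays, per the file headers. The deposited log2 value table was centred per probe, and the sources used here do not give how the authors scaled it. It correlated at 0.993 to 0.997 with the scanner values centred the same way and served as an alternative.

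Control spots and outlier flags were left out, spots of a probe were averaged, and log2 processed signal minus the array's 75th percentile was kept for probes well above background on at least 3 of 18 arrays, which gave 33185 features. Of these, 688 lacked a value on at least 1 uterus array after outlier flags and were fitted on the rest. Limma 3.58.1 in R 4.3.3 fitted 18 arrays with 6 groups and slide as a block (2-sided, Benjamini-Hochberg over all features, 10 residual degrees of freedom). The slide came from the file headers, and in the uterus it coincided with the replicate number. Pairing by number was set by the definition of the comparison. Deviations from the group mean correlated at 0.399, 0.309 and 0.444 for arrays of the same number, against -0.338 to 0.009 for other pairs. Because deviations cancel within a group, these ranges depend on each other, and they did not decide the pairing. The fit was tested on simulated data.

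Probes were named by looking up the accession that the files give for each probe among RefSeq transcripts. This gave 1 gene for 32994 probes and none for 23611. The brightest probe stood for a gene. A gene not well above background on any array of a group was given as a bound, from the mean of the brighter group against, per array, the higher of the lowest signal among probes well above background and the gene's own. The normexp alternative used the median spot signal, since the files used here hold no mean signal. Other alternatives were scaling, filters, probe choice, array weights, the arrays fitted, the block, and leaving out arrays or pairs. Arrays carried pools, so p-values rest on the spread between pools and not between animals. That spread was estimated over all 18 arrays, most of them from operated mice, and not from the uterus pools alone. The number of arrays limits the precision. An exact permutation of 3 against 3 cannot go below p = 0.1, and an exact sign flip of the 3 pairs cannot go below p = 0.25.

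The members and gene lists were chosen with earlier results of these data known. Genes were named by rule: the steroid receptors; up to 10 genes each way with the smallest p and groups that did not overlap; and, per list, up to 6 members that followed the list's median on all 3 slides at an unadjusted p under 0.05 and up to 2 that ran against it, or, where fewer than 2 followed it, the 2 to 4 members with the widest difference. Srebf2, Greb1, Igf1 and Ihh, which fall outside this rule, were chosen after their values were seen. A few members that the rule names count in their lists and are not reported here by name.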

Additional observations from a re-analysis of the deposited data

How the results depend on the processing

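Without the replicate block, 0 features passed and 1874 rather than 2871 were lower at an unadjusted p under 0.05, and with the 6 uterus arrays alone the count was 2432 with the replicate block and 1304 without it, again with 0 past the threshold. With the 6 uterus arrays, 1694 features were higher with the block and 1114 without it, and members higher at that p were 22 and 4 for DNA replication, 7 and 1 for G1 genes, and 7 and 3 for interferon-induced genes, while lower members were 7 and 3 for progesterone and hedgehog genes and 5 and 2 for gland genes. No feature crossed the adjusted threshold through the block. Median centring gave 2986 higher and 1551 lower and a median over all features of 0.054, quantile normalisation gave 2215 higher and 1893 lower, and array weights put 14 features past the threshold. Leaving out arrays or pairs gave 918 to 1997 higher and 1628 to 3502 lower, with 0 past the threshold each time. Of the list medians, that of cholesterol genes was 0.995 and that of NK genes -0.59 with normexp, and array weights gave 1.397 for epithelial and 1.929 for oestrogen-induced genes. Mast cell genes had -1.111 with median centring, -1.119 with quantile normalisation, -0.63 with normexp and -0.814 with no filter, and lymphatic genes -0.597, -0.611 and -0.369 with the same first 3 settings and -0.546 with array weights. Leaving out arrays or pairs, medians ranged over 1.039 to 1.589 for cholesterol, 0.989 to 1.533 for epithelial, 1.123 to 2.053 for oestrogen-induced, 1.357 to 1.739 for mitosis, -1.487 to -0.712 for mast cell, -0.841 to -0.527 for lymphatic and -1.089 to -0.157 for blood vessel genes. Normexp, which adds an offset of 50, gave smaller differences for dim genes, 1.32 for Kif4, -0.90 for Hhip, -0.70 for Calca, -0.96 for Wnt6 and -0.46 for Nlrp10. Among single genes the sign turned for Fads1 (0.08 with the mean of its probes), Greb1 (-0.22 with array weights) and Pttg1 (0.001 with median centring), and leaving out arrays or pairs spanned 0 for Esr1 (-0.065 to 0.203), Pgr (-0.772 to 0.113), Greb1 (-0.551 to 0.526) and Ihh (-1.489 to 1.018). The cause of these changes was not tested.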
